A study of Mus musculus with 10 samples.

Results

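Accessible chromatin was examined at the 10 genes that encode CTCF and the cohesin machinery in mouse fibroblasts. These were Ctcf, the cohesin ring genes Rad21, Smc1a and Smc3, the genes of the exchangeable cohesin subunits Stag1 and Stag2, and the genes of the regulators Nipbl, Wapl, Pds5a and Pds5b. The members were the accessible sites that overlapped the body of one of these genes or the 50 kb on either side of it. This rule gave 160 of the 153682 sites on chromosomes 1 to 19, X and Y of the mouse genome build mm10, from a list of 153924 sites in all. Each of the 10 genes had at least 1 site. The rule used the positions of the genes and no measured signal.

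Cohesin is a ring-shaped protein complex that extrudes loops of chromatin, and CTCF is a zinc finger protein that binds DNA and halts the moving ring. Pairs of bound CTCF proteins that face each other often lie at the base of such loops, so the orientation of the CTCF motif matters for where loops form. The same ring holds sister chromatids together until cell division, and the genes of the core subunits are expressed in dividing cells of most tissues.

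The gene models, from GENCODE M21 on mm10, were as follows. Ctcf (ENSMUSG00000005698.15, chr8:105636568-105682922, plus strand) encodes the boundary factor itself. The ring genes were Rad21 (ENSMUSG00000022314.10, chr15:51962240-51991747, minus strand), Smc1a (ENSMUSG00000041133.11, chrX:152016428-152062694, plus strand) and Smc3 (ENSMUSG00000024974.10, chr19:53600398-53645833, plus strand). The exchangeable subunits come from Stag1 (ENSMUSG00000037286.15, chr9:100597798-100959375, plus strand) and Stag2 (ENSMUSG00000025862.14, chrX:42149317-42277185, plus strand). The loader gene was Nipbl (ENSMUSG00000022141.7, chr15:8290617-8444463, minus strand) and the gene of the release factor Wapl (ENSMUSG00000041408.18, chr14:34673928-34747983, plus strand). The last pair was Pds5a (ENSMUSG00000029202.12, chr5:65605721-65698273, minus strand) and Pds5b (ENSMUSG00000034021.15, chr5:150673739-150810690, plus strand), which lie far apart on chromosome 5.

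The sites were identified by ATAC-seq, in which the Tn5 transposase cuts open chromatin and the released fragments are sequenced. The cells were immortalized mouse embryo fibroblasts (iMEF) of the single clone NG3, which carried a CAGG-Cre-ER transgene and had lost exon 4 of both Ash2l alleles after hydroxytamoxifen. They lived on a lentiviral fusion of FKBP12(F36V), 2 HA tags and human ASH2L, a subunit of methyltransferase complexes for lysine 4 of histone H3, and dTAG-13 targets this fusion for degradation. The 10 libraries formed 5 groups of 2 replicates, which were controls without dTAG-13, given ethanol (EtOH) by the methods of the study, or had received dTAG-13 for 24 h, 8 h, 4 h or 30 min, and no source used here says that the replicates were separate cultures.

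The list pools all libraries and gives only the position of each site. Control and dTAG-13-treated cells were therefore not compared, no value has a replicate error, and sequencing depth is unknown. A site in the list was accessible in at least some of the cells under at least some of the conditions. Regarding the identity of the cells, 11 of 11 fibroblast marker genes had a site within 1 kb of a start, with a median width of the widest such site of 1886 bp. Markers of other cell types also had such a site in 7 of 9 cases, with a median width of 706 bp. Of all coding genes, 70.8% had such a site, with a median width of 1412 bp. The list of sites alone thus does not separate cell types sharply.

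The promoter DNA of 4 of the genes is shown first, because all 10 genes had an accessible promoter. RefSeq promoters on GRCm38.p6 were matched for 7 of the 10 genes, namely Ctcf, Smc1a, Smc3, Stag1, Wapl, Pds5a and Pds5b. For Ctcf, Smc3, Pds5a and Pds5b, the bases upstream of the start that lay before any exon of either annotation are printed 5′ to 3′. All of these bases lay inside an accessible site. Capitals mark GGGCGG, the box bound by SP proteins, and the NRF1 motif, which is GCGC, any base, then TGCGC, each on either strand.
Ctcf (chr8:105636288-105636473, plus strand): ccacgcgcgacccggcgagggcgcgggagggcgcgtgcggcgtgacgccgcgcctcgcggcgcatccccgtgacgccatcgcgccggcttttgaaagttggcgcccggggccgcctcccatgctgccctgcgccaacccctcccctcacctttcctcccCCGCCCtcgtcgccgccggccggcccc
Smc3 (chr19:53600146-53600395, plus strand): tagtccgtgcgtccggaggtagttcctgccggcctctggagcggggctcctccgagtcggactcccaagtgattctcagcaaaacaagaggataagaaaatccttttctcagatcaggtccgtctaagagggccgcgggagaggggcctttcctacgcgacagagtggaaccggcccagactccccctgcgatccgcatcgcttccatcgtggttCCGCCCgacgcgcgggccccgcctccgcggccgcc
Pds5a (chr5:65698274-65698486, minus strand): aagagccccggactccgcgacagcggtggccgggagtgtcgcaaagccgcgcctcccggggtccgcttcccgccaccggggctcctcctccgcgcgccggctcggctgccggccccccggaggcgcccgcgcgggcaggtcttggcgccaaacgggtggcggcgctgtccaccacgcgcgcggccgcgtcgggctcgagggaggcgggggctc
Pds5b (chr5:150673577-150673712, plus strand): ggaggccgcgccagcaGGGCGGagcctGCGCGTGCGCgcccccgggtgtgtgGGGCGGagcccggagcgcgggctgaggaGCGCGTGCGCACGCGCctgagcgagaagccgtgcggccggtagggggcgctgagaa
The 2 boxes of Pds5b stand beside 3 NRF1 matches, of which the last 2 overlap each other. The printed stretch of Pds5a held 0 matches. Within the whole 250 bases of each RefSeq promoter, the SP box occurred in 7 of 7 genes, compared to 32.7% of 32851 RefSeq promoters of the same length. For Pds5a and Pds5b, 37 and 88 of these bases, respectively, are exon in GENCODE. The only SP box of Pds5a lay in that part. The NRF1 motif occurred in 3 of 7, which were Stag1, Wapl and Pds5b, compared to 3.74% of all promoters. The CCAAT box was found in 4 of 7 and in 33.8% of all promoters, and that of Pds5b lay in the part that is exon in GENCODE. The 7 promoters were richer in G and C than most, with a median of 71.2% (56.8 to 80.4%) compared to 52.4% for all promoters. The SP and NRF1 motifs consist mostly of G and C, and the part of base composition in these differences was not tested. Matches to the CTCF, EGR and AP-1 motifs described below were found in 0 of 7 of these stretches, compared to 0.508%, 3.06% and 4.46% of all promoters. The ETS motif CCGGAAGT and the CRE motif TGACGTCA were also found in 0 of 7, compared to 2.88% and 1.55%. Such matches describe the sequence and are not binding sites.

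All 10 genes had an accessible promoter. A promoter site was defined as a site that overlapped the window of 1 kb on either side of an annotated start. Such a site was present in 10 of 10 genes, compared to 70.8% of 21938 protein-coding genes. It overlapped a CpG island, a stretch of DNA rich in the dinucleotide CpG, in 10 of 10 genes, compared to 59.9% of coding genes. A site within 1 kb of the outermost 5′ end of the gene model was present in 9 of 10 genes, compared to 66.2% of coding genes, and the exception was Stag1. With internal starts counted, each gene thus had a site at 1 or more of its annotated starts, though not at all of them in every gene. Genes with equal numbers of starts were not compared. With a stricter definition of islands the number was 9 of 10, with Nipbl as the exception. The genes have 66 annotated starts together, of which 34 lay inside a site and 37 within 1 kb of one. For stricter islands and for single starts, no share over all coding genes is given here.

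**Figure D1:**
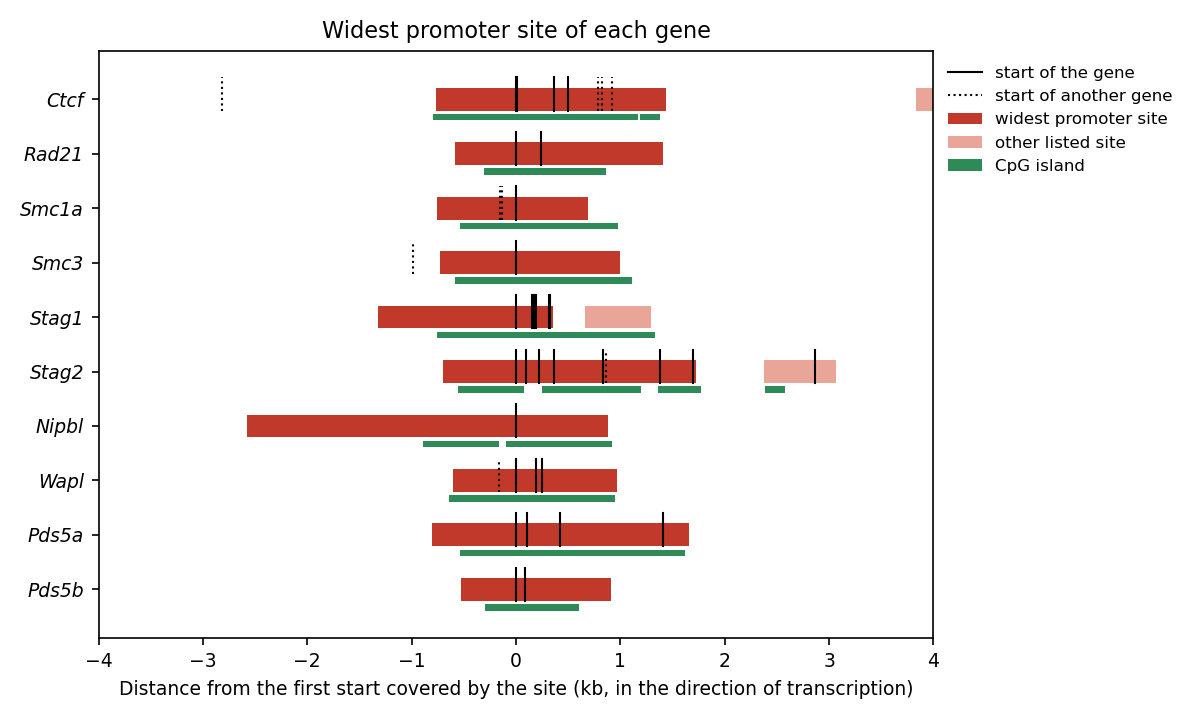
The widest promoter site of each gene, drawn in kb from the first annotated start that it covers, in the direction of transcription. Red bars are the widest sites, pale bars other listed sites, green bars CpG islands, solid ticks starts of the gene and dotted ticks starts of other genes. The Nipbl site reaches 2582 bp upstream of the start, and the Stag1 site covers 7 of its 14 starts.

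In each gene, the widest promoter site exceeded the median of the coding genes, in Smc1a (1443 bp) and Pds5b (1440 bp) only slightly. The widest promoter site of each gene measured between 1440 and 3463 bp, with a median of 1863 bp, and 10 of 10 lay above 1412 bp, the median of the coding genes with a promoter site. In 4 of 10 genes, namely Nipbl, Pds5a, Stag2 and Ctcf, it ranked above percentile 90. Together, the 16 promoter sites of the genes ranged from 267 to 3463 bp. Their median was 1511 bp, compared to 1061 bp for all promoter sites. Because the list pools libraries, a wide site can be a single broad opening or several neighbouring ones joined, which was not tested. Width is also the only property of a site that the list holds.

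Ctcf had a promoter site of 2203 bp (chr8:105635805-105638007), which ranked at percentile 91.8 of the coding genes with a site. It reached 763 bp upstream and 1439 bp downstream of the 5′ end and covered 4 of the 5 annotated starts. Starts of Agrp and of the noncoding gene Gm5914 on the opposite strand lay within the same site. Accessibility there cannot be assigned to Ctcf alone.

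Among the ring genes, Rad21, which encodes the subunit that closes the ring, had the widest promoter site with 1995 bp (chr15:51990335-51992329, percentile 85.9). Smc3 followed with 1731 bp (chr19:53599666-53601396, percentile 73.7). Smc1a had 1443 bp (chrX:152015674-152017116, percentile 52.8), close to the middle of the coding genes. SMC1A and SMC3 are the long ATPase arms of the ring. Smc1a shared its site with Ribc1, whose nearest start lies 133 bp away on the opposite strand. Smc3 had 2 more sites near starts inside the gene, of 330 and 267 bp, neither of them at a CpG island.

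STAG1 and STAG2 are alternative subunits of the ring that contact CTCF, and their genes differed in the layout of the promoter. Stag2 had a site of 2425 bp at its 5′ end (chrX:42148618-42151042, percentile 95.5), which covered 7 of 8 annotated starts, and a second site of 692 bp that held the remaining start. The nearest starts of Stag2 and of Gm37564 on the opposite strand lay 27 bp apart inside the wide site. Stag1 had no site within 1 kb of its outermost start. Instead, a site of 1674 bp (chr9:100642126-100643799, percentile 70.4) covered 7 of its 14 starts, which lie between 45.7 and 46.0 kb downstream in the gene, together with a CpG island of 2093 bp. A further site of 637 bp overlapped the same island. The window for this gene was set by the outermost start, so the 50 kb upstream of it do not describe the surroundings of the accessible start on that side in the same way as for the other genes.

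Nipbl, whose product loads cohesin onto DNA and drives loop extrusion, had the widest promoter site of the 10 genes with 3463 bp (chr15:8443583-8447045, percentile 99.8). It extended 2582 bp upstream and 880 bp downstream of the only annotated start in GENCODE. Most of the upstream extension lay outside CpG islands, of which the larger in the site measured 1016 bp. Wapl, whose product releases cohesin, had a site of 1579 bp (chr14:34673322-34674900, percentile 63.9) that covered 3 of 7 starts and a start of the noncoding gene 5830448L01Rik, 165 bp away from the nearest start of Wapl on the opposite strand.

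PDS5A and PDS5B are related proteins that bind cohesin and take part in its release and its maintenance. The promoter sites of their genes differed in width. Pds5a had 2466 bp (chr5:65696616-65699081, percentile 96.1), covering 4 of 14 starts, and Pds5b 1440 bp (chr5:150673209-150674648, percentile 52.6), covering 2 of 7 starts. Both genes had 1 more site near an internal start, of 1289 bp at 59.0 kb in Pds5a and 594 bp at 121 kb in Pds5b, and neither of these was at a CpG island.

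The choice of annotation mattered for the outermost 5′ ends. With the 5′ ends of the RefSeq gene models, 7 of 10 genes had a site within 1 kb. The share of all coding genes at RefSeq 5′ ends is not given here, so this count has no background. The nearest site lay 1209 bp away for Rad21, 1276 bp for Nipbl and 2037 bp for Stag1. The RefSeq 5′ end of Nipbl is 20852 bp upstream of the GENCODE one, so the 3463 bp site would be an internal site of that model.

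Beyond the promoters, the genes differed strongly in how many sites surrounded them. The windows held between 3 and 38 sites, with a median of 13.5, compared to 12 for all coding genes. Because the bodies were long, with a median of 83.3 kb compared to 17.4 kb, counts were divided by the length of the window. The members then had a median of 8.27 sites per 100 kb and the coding genes 8.66, and 4 of 10 members lay above the latter value. By density in these windows, the members as a group thus lay near the middle of the coding genes, at a median percentile of 47.0. In the gene bodies alone, the median percentile was 34.2.

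**Figure D2:**
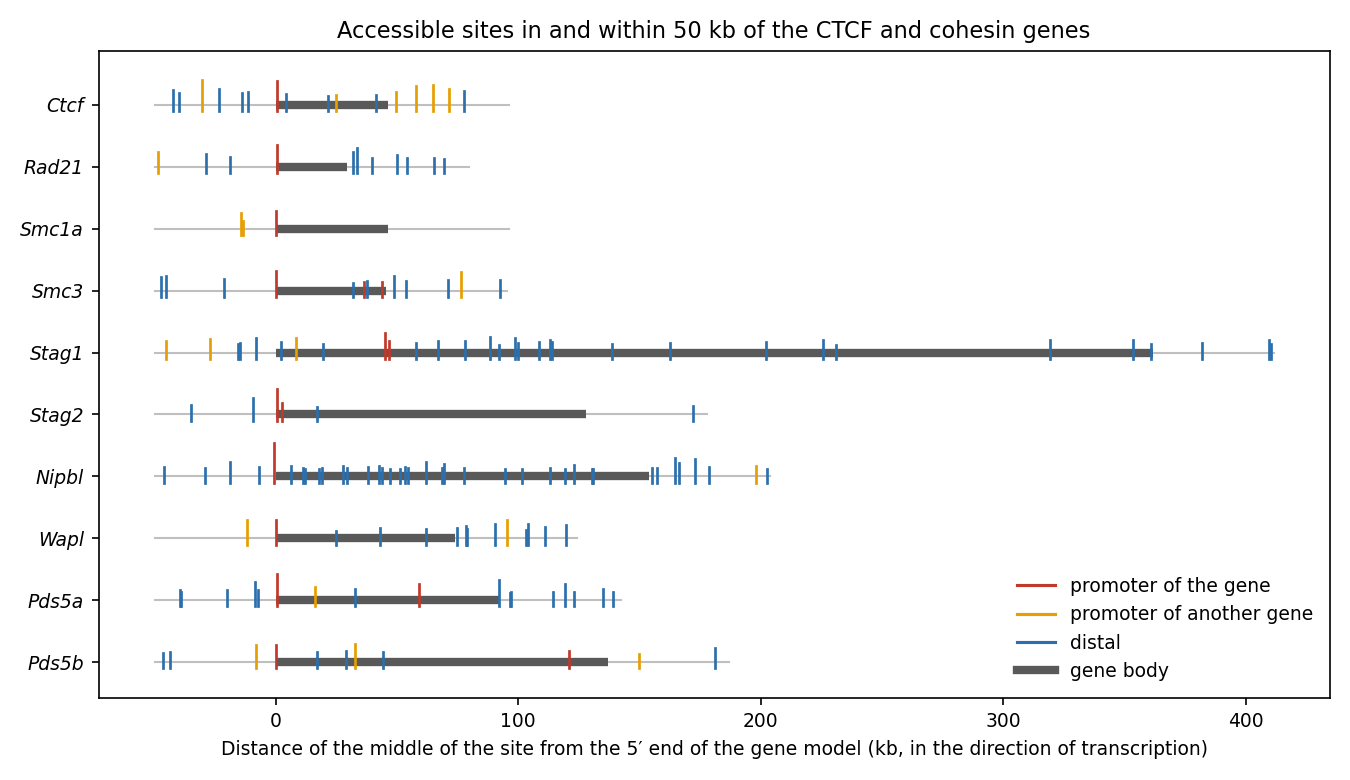
Sites along the 10 gene windows, placed by the distance of their middle from the 5′ end of the gene model in kb. Thick grey bars are gene bodies, and the height of each tick grows with the width of the site. Red marks promoter sites of the gene, orange promoter sites of other genes and blue distal sites. The bodies of Nipbl and Stag1 hold 45 of the 59 distal sites in bodies.

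Nipbl stood at the upper end with 15.0 sites per 100 kb (percentile 88.9 of coding genes) and 38 sites in all. Of these, 26 overlapped the body, 4 the upstream and 8 the downstream flank. Its chromosome is dense in listed sites, with a median of 14.9 per 100 kb over its coding genes, and within chromosome 15 Nipbl ranked at percentile 50.9. Rad21 lies on the same chromosome but had 8.49 sites per 100 kb, which is percentile 48.6 of all coding genes and percentile 13.9 of those on chromosome 15. Why chromosome 15 holds so many sites was not tested.

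Smc1a and Stag2, the 2 genes on the X chromosome, stood at the lower end with 2.05 and 2.63 sites per 100 kb, respectively. The median of the coding genes on X was 3.28, and within this chromosome they ranked at percentiles 39.1 and 42.7. Smc1a had 3 sites in its window, of which 2 were promoter sites of the neighbour Hsd17b10, and 0 sites downstream of its promoter. Stag2 had 6 sites. Both rank orders thus depended on the chromosome used for comparison.

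The remaining genes lay between these values. Ctcf had 10.9 sites per 100 kb (16 sites), Smc3 8.94 (13 sites), Pds5a 8.83 (17 sites) and Wapl 8.04 (14 sites). Stag1 had 6.72 (31 sites) and Pds5b 4.64 (11 sites). The window of Ctcf lay among other genes, and 6 of its 16 sites were promoter sites of other genes, including Ripor1, Carmil2, Acd with Pard6a, and Enkd1. Rad21 showed the opposite arrangement with 9 of 11 sites between genes.

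**Figure D3:**
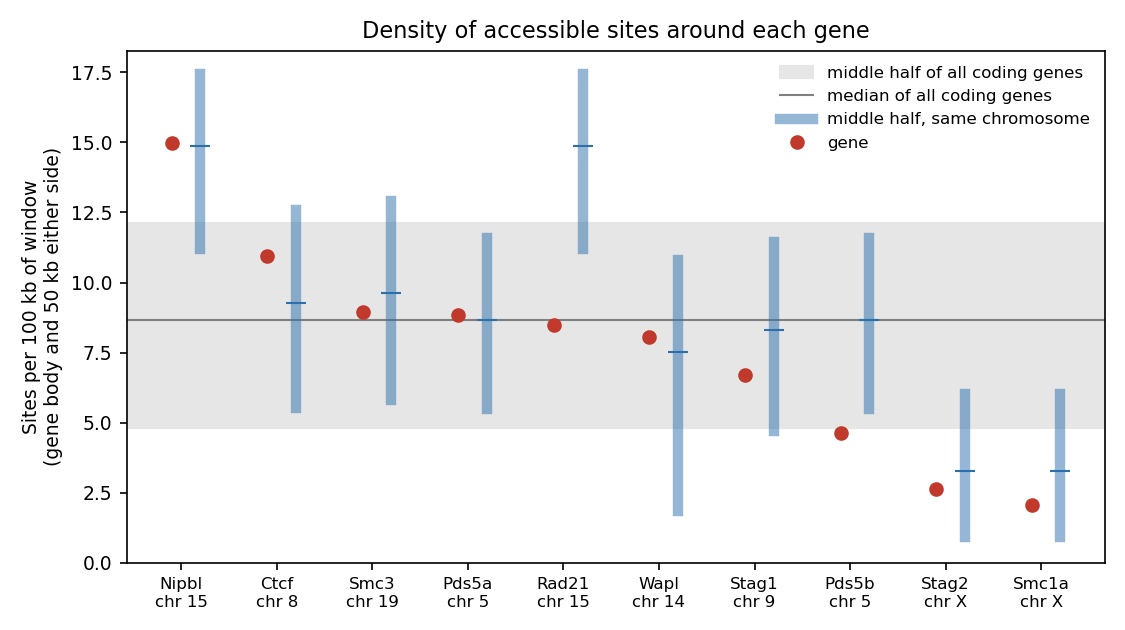
Sites per 100 kb of window for each gene (red points), in falling order. The grey band and line are the interquartile range and the median of all coding genes, and the blue bars and ticks are those of the coding genes on the same chromosome. Nipbl and Rad21 share chromosome 15 but lie at 15.0 and 8.49.

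Of the 160 sites, 36 or 22.5% were promoter sites, 16 of the genes themselves and 20 of other genes, compared to 17.2% of all sites. By the rule every window is laid around a gene, so the higher share is no result about the members. The other 124 or 77.5% were distal. By the position of their middle, 57 lay in introns and 2 in exons of the genes, 20 in introns and 1 in an exon of other genes, and 44 between genes. Of the 124, 2 or 1.61% were at a CpG island, compared to 3.23% of all distal sites, which is no difference that so few sites can show.

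Distal sites inside the gene bodies were distributed unevenly. Of 79 sites that overlapped the bodies, 59 were distal, and 45 of these belonged to Nipbl (25) and Stag1 (20). Per length, Nipbl had the highest value of these genes, with 16.2 distal sites per 100 kb of body (percentile 95.1 of coding genes). This percentile was taken over all chromosomes, where the median of coding genes was 1.05. By all sites in the window, Nipbl ranked only at percentile 50.9 within chromosome 15. Body density was not ranked within that chromosome, so the part of the chromosome in the high value was not tested. The Nipbl body of 153.8 kb is also long, at percentile 93.5 of coding genes by length. The part of length in the rank of Nipbl was not tested. Stag1 had 5.53 and Ctcf 6.47 distal sites per 100 kb of body. By density, Stag1 thus lay below Ctcf despite its higher count. The other bodies held 3 distal sites each in Ctcf, Wapl and Pds5b, 2 each in Smc3 and Pds5a, and 1 in Stag2. Rad21 and Smc1a had no distal site in the body, which is the case in 49.4% of coding genes. Both bodies, of 29.5 and 46.3 kb, are longer than the median of 17.4 kb, and genes of equal length were not compared.

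The long genes also differed in how their sites were spread. The longest stretch of the Nipbl body without a site was 22.9 kb, in a body of 153.8 kb. In Stag2, with a body of 127.9 kb, it was 110.7 kb, and a single intronic site of 199 bp lay 17.1 kb from the 5′ end. In Pds5b, with a body of 137.0 kb, it was 76.2 kb. In Stag1, whose body spans 361.6 kb, it was 87.9 kb, and the intronic sites were closest to each other between 57.8 and 114 kb from the 5′ end.

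The intronic sites of Nipbl were narrow. The 25 distal sites in its body had a median width of 278 bp (95% interval 207 to 429 bp, from order statistics), and 15 of 25 were under 300 bp. The 20 distal sites in the Stag1 body had a median of 507 bp (376 to 798 bp), with 4 under 300 bp. Over all 127255 distal sites the median was 565 bp (562 to 568 bp) and 20.4% were under 300 bp. Chromosome 15 as a whole also had narrower distal sites, with a median of 525 bp (514 to 540 bp) and 25.6% under 300 bp. None of these narrow stretches was exonic, as 0 of the 25 sites overlapped an exon of Nipbl. Such intervals reflect how many sites were counted and no replicate error.

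**Figure D4:**
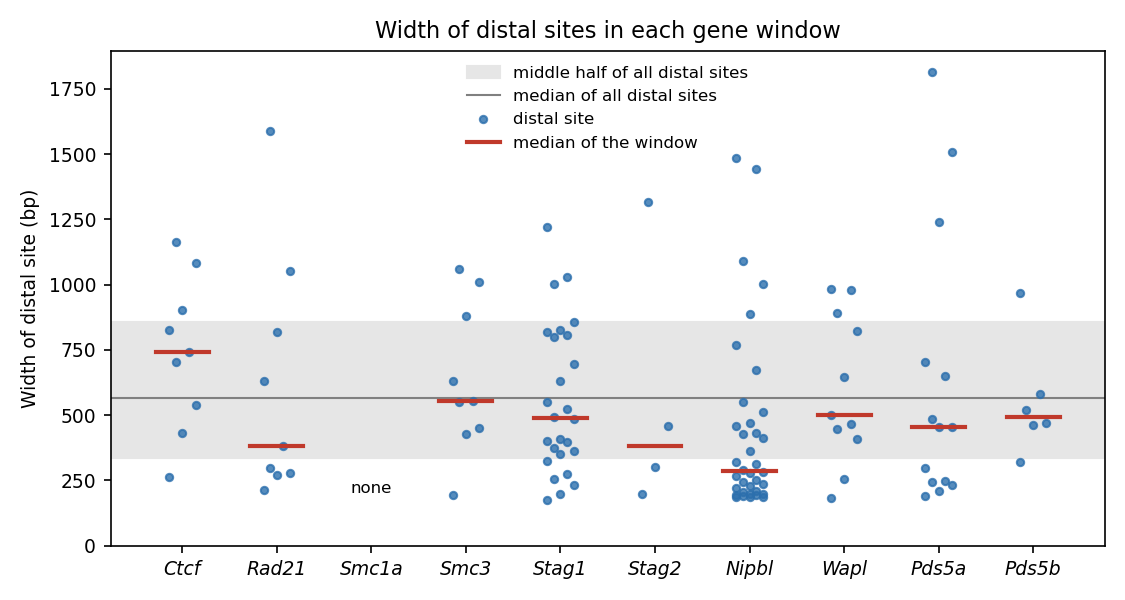
Width in bp of each distal site in the 10 windows (blue points) with the median of the window (red line). The grey band and line are the interquartile range and the median of all distal sites. Nipbl has the lowest median with 286 bp, and Smc1a has no distal site.

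In the other windows, the median width of distal sites ranged from 380.5 bp for Stag2 (4 sites) and 382 bp for Rad21 (9 sites) to 743 bp for Ctcf (9 sites). All 124 distal sites had a median of 456.5 bp (402 to 518 bp). Without the 36 sites of the Nipbl window the median was 495.5 bp, so that Nipbl lowered the value for the group. The widest distal site, of 1814 bp, lay at the 3′ end of Pds5a, 91.9 kb from its 5′ end, in an exon.

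Repeats were more frequent in the distal sites of these genes. At least 50% of the bases were soft-masked as repeats in 17 of 124 distal sites or 13.7%, compared to 6.19% of all distal sites. The median GC content was 41.7% compared to 44.4%. In the Nipbl body 4 of 25 sites were of this kind, with a median GC content of 40.3%. Reads map less uniquely to repeats, and whether this affected these sites was not tested.

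Matches to the core of the CTCF motif were searched in the 160 sites, since CTCF and cohesin meet at such sequences. There were 7 matches in 6 sites of 5 genes. They are shown with 9 bases on either side on GRCm38.p6, 5′ to 3′ on the strand of the motif, with the 12-base core in capitals, because their orientation relative to the gene differed.
Ctcf upstream (chr8:105622557-105622586, plus strand): gagctgtcgCCACCAGGGGGCagcagaact
Ctcf downstream (chr8:105714342-105714371, plus strand): tgccttcttCCAGTAGGGGGCgctgcagga
Smc3 upstream (chr19:53579105-53579134, minus strand): tcatcattgCCACTAGAGGGCgcttcaaag
Stag1 promoter, first (chr9:100643564-100643593, plus strand): gcagcgcggCCAGCAGAGGGCggtcgggac
Stag1 promoter, second (chr9:100643622-100643651, plus strand): tggaaaatgCCACCAGATGGCgggttagga
Wapl downstream (chr14:34753164-34753193, minus strand): tttcacacaCCAGCAGAGGGCatcagcttt
Pds5b intron (chr5:150702882-150702911, minus strand): ttctgagaaCCAGCAGGTGGCacactcatt
In the Ctcf window, both matches, 14 kb upstream and 77.8 kb downstream of the 5′ end, were oriented like the gene. In the Stag1 promoter site the 2 matches also had the orientation of the gene. They lay 45.8 kb from the outermost start, among the 7 covered starts, and both overlapped annotated exon sequence. The matches 21.3 kb upstream of Smc3, 79.3 kb downstream of the Wapl 5′ end and in the intron of Pds5b at 29.2 kb had the opposite orientation. In Rad21, Smc1a, Stag2, Nipbl and Pds5a windows 0 matches were found, which says only that these letters are missing from the sites.

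The frequency of the CTCF match was near that of all distal sites. In the middle 200 bp, 4 of 124 distal sites had it, or 3.23% (95% Wilson interval 1.26 to 8.00%), compared to 3.05% of all distal sites. Over the whole site it was 5 of 124, or 4.03%, compared to 4.60%. A share this close to that of all sites is no result about the members. A looser form of the core with 4 positions left free was found in the middle of 4 of 124, again 3.23% (1.26 to 8.00%), compared to 6.68% of all distal sites. Over the whole site it was found in 14 of 124, or 11.3%, compared to 11.6%. Of the 16 promoter sites of the genes, 1, that of Stag1, held the core over the whole site, or 6.25%. The share of all promoter sites was 3.94%. The looser form was found in 5 of 16, or 31.2% (14.2 to 55.6%), compared to 13.8%. In the middle 200 bp, 0 of 16 held either form, compared to 1.82% and 4.70%. The part of width and base composition was not tested.

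The AP-1 motif (TGACTCA or TGAGTCA), bound by FOS and JUN proteins, occurred in the middle 200 bp of 12 of 124 distal sites, or 9.68% (5.62 to 16.2%), compared to 16.3% of all distal sites. Over the whole site it was found in 24 of 124, or 19.4%, compared to 31.0%. Wider sites were also counted alone. Among the distal sites of 619 bp (the median of all sites) or more, 7 of 43 had the motif in the middle, or 16.3% (8.12 to 30.0%), compared to 17.8% of all distal sites of that width. Of the 124 distal sites, 14 or 11.3% were narrower than 200 bp, compared to 3.59% of all distal sites. In these, the 200 bp searched reached beyond the edges of the site. The interval for the 43 wider sites holds both 9.68% and 17.8%, so they cannot show whether the lower share was absent there. The part of width in the difference was not tested.

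In the 16 promoter sites of the genes, motifs were searched over the whole site. The NRF1 motif was present in 5 of 16, those of Rad21, Stag1, Stag2, Wapl and Pds5b, or 31.2% (14.2 to 55.6%), compared to 7.48% of all promoter sites. The EGR motif (GCGTGGGCG or GCGGGGGCG) was present in 2 of 16, those of Ctcf and Nipbl, or 12.5%, compared to 9.52%. AP-1 was present in 3 of 16, or 18.8%, compared to 21.8%. These sites were wider than average, and longer sites hold more matches by their length. Their median ratio of observed to expected CpG was also higher, at 0.842 compared to 0.470 for all promoter sites. The part of width and of base composition in these shares was not tested. In the middle 200 bp, 0 of 16 had any of these 3 motifs, compared to 1.95% of all promoter sites for NRF1, 2.15% for EGR and 7.03% for AP-1. In the 124 distal sites, 0 matches to either NRF1 or EGR were found, over the whole site as well as in its middle, compared to 0.209% and 0.293% of all distal sites over the whole site.

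Genes of related functions were examined the same way. Of 9 genes for cohesin loading, acetylation and release, 9 had a promoter site at a CpG island, compared to 59.9% of coding genes. The median width was 1404 bp. The widest of these, of 1545 bp, was that of Mau2, whose product is the partner of NIPBL in loading, and the narrowest, of 852 bp, that of Esco2, which encodes an acetyltransferase for SMC3. The same held for 14 of 14 genes of the condensin and SMC5/6 complexes, which are built on related SMC proteins, with a median of 1441.5 bp. Both medians were close to the 1412 bp of all coding genes and below the 1863 bp of the 10 genes of CTCF and cohesin. Wide promoter sites were not particular to these 10 genes. The condensin and SMC5/6 genes ranged from 965 to 2636 bp, and the median of the fibroblast markers was 1886 bp. Of 6 zinc finger genes linked to chromosome architecture, 5 had a promoter site, compared to 70.8% of coding genes. The median width of these was 1548 bp (1496 to 1837 bp). The nearest site analysed here lay 80360 bp from a start of Vezf1, the exception, and its window held 0 sites, so that sites there may not be part of the data used here and nothing is read from it.

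Not all of the germline paralogs had an accessible promoter. Of 5 such genes, 3 had a promoter site, compared to 70.8% of coding genes, and 2 had one at a CpG island, compared to 59.9%. So few genes cannot show a difference from these shares. The 2 genes with an island were Smc1b, with a site of 1063 bp, and Stag3, with 1109 bp. Rad21l, a meiotic counterpart of Rad21, had its nearest site 7664 bp from a start. Ctcfl, the paralog of Ctcf expressed in the testis, had it 11515 bp away. Rec8, the meiotic kleisin, had a site of 198 bp, compared to 1995 bp at Rad21.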

How the data were processed

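Per their methods, the authors used Trim Galore on the ATAC-seq reads, BWA for alignment to mm10, ENCODE filters, Picard to merge replicates, MACS2 for narrow peaks and DESeq2 for testing. The peak threshold, Tn5 shift, blacklist and joining of sites were not given in the sources used here, and each could change the number and width of sites. The deposited list holds positions in bp (other values than counts or signal), pooled over 10 libraries, so that the planned samples and replicates could not be compared and the depth is unknown.

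Positions were read as counted from 0 and are printed counted from 1. On GRCm38, 0 sites ended beyond their chromosome. The 242 sites on other sequences were left out. Genes and starts came from GENCODE M21. CpG islands were called outside repeats (at least 200 bp, GC content over 0.5, observed to expected CpG ratio over 0.6; strict islands 500 bp, 0.55 and 0.65). Sites overlapping 1 kb around any start were promoter sites, the others distal. Motifs were searched on both strands. A percentile is the rank among coding genes. Intervals are 95% intervals over sites. The 10 named genes are the whole group. The members, gene lists and motifs were chosen with earlier results of these data known, and no test was made. Scripts were tested on simulated data and ran under Python 3.11.15 with Matplotlib 3.10.9, Numba 0.67.0, SciPy 1.17.1 and NumPy 2.4.6.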

Additional observations from a re-analysis of the deposited data

How the results depend on the processing

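Of 44 alternatives, 39 were counted as leaving the value in place and 5 as moving it, by limits not given here. The 160 sites became 79 in the gene bodies alone, 262 with 100 kb on either side and 72 after sites narrower than 619 bp, the median, were dropped. The share of distal sites with AP-1 was 19.4% over the whole site and 16.3% among the wider sites, instead of 9.68%. Values counted as in place also varied. The median percentile of the genes by density was 47.0 in the main setting and 34.2 in the bodies alone. It was 38.7 with 20 kb and 57.3 with 100 kb on either side. The 10 genes with a promoter site became 9 at the outermost GENCODE 5′ end and 7 at the RefSeq 5′ end. RefSeq gene bodies gave 163 sites, and these, the RefSeq 5′ ends and the width without Nipbl were chosen after seeing the data. No paired analysis was possible because libraries are pooled in the list. A site in the list may stem from any group, and a gene without one may have had signal below the unknown threshold.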
